A study of Mus musculus with 9 samples.

Results

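The enzymes that write and erase DNA methylation and histone marks were followed in mouse haematopoietic stem cells, as 39 genes chosen by function among the 52550 gene IDs of the count table. The 39 genes fell into 5 classes: 7 of DNA methylation, 7 of the Polycomb group, 9 histone methyltransferases, 7 histone demethylases and 9 of histone acetylation. All 39 matched a single gene ID. The study profiled RNA from stem cells of bone marrow in 3 groups of 3 libraries. Old Sphk2 KO cells came from mice of 22 to 24 months that carried the allele labelled B6N.129S6-Sphk2tm1Rlp/J (Sphk2 cKO), and no driver for a conditional deletion was named in the labels. Old WT cells came from wild-type mice of 22 to 24 months, and young WT cells from wild-type mice of 2 months. Each library was made from 1000 cells sorted as lineage-negative, Sca1+, c-Kit+, CD48- and CD150+, by poly-A tailing and 13 cycles of PCR, and was read as pairs of 150 bases. The labels call the 3 libraries of a group technical replicates and name no animals, so p-values measure only the spread between these libraries.

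DNMT1 copies methylation of CpG sites onto the new DNA strand with the help of UHRF1, DNMT3A and DNMT3B set new methylation, and the TET enzymes oxidise it on the way to removal. Polycomb complexes methylate histone H3 and ubiquitinate H2A at silenced genes, other methyltransferases and demethylases set and remove activating and repressive marks, and acetyltransferases and deacetylases open and close chromatin. Several of these genes, among them Dnmt3a, Tet2, Asxl1 and Ezh2, are known as regulators of stem cell self-renewal in blood, and changes of methylation and of Polycomb marks are known from ageing stem cells. SPHK2, the enzyme whose gene the KO allele targets, makes the lipid sphingosine-1-phosphate, which in nuclei of human cells has been described to inhibit HDAC1 and HDAC2.

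Promoter sequences were compared because Ezh2 and Dnmt1 were both lower in old Sphk2 KO than in young WT cells. RefSeq start sites (GRCm38.p6) were found for 33 of the 39 genes, all but Kdm5a, Hdac3, Kat6a, Kdm6b, Nsd1 and Hdac1. Where a gene had several starts, only the outermost was taken. Which start these cells use was not tested, so the sequence before it may not be the promoter in use. In the 250 bases before the start, the median number of CpG sites was 21 over the 33 genes, against 6 over 27025 genes. The 27025 were all genes with a RefSeq start, not only genes that these cells express. Whether the differences from them are particular to these enzymes was not tested. The GC box GGGCGG was found on either strand in 26 of the 33 (78.8%), against 33.0% of all promoters. The CCAAT motif was in 9 (27.3%), against 34.5%. The motif TGANTCA was in 1 (3.03%), against 6.85%, and TTTNGCGC in 0, against 1.15%. The Ezh2 promoter (chr6:47595031-47595280, minus strand) held 23 CpG sites, or 0.910 of the number its base composition gives, and 3 CCAAT motifs. The Dnmt1 sequence before the outermost start (chr9:20959889-20960138, minus strand) held 2 CpG sites, 0.126 of that number, and 4 CCAAT motifs. Other Dnmt1 starts were not examined. In the sequences, read 5′ to 3′ on the gene's strand, capitals mark CCAAT on either strand (CCAAT or ATTGG).
Ezh2: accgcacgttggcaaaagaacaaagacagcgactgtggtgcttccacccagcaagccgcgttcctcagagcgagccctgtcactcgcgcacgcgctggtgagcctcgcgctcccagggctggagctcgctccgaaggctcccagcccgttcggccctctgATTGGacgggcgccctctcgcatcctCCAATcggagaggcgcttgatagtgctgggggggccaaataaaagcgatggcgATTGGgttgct
Dnmt1: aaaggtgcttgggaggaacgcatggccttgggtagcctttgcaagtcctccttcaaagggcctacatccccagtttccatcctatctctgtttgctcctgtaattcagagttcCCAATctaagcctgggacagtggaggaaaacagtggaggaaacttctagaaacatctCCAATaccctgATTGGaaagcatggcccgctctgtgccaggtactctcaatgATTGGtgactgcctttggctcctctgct

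The libraries differed in quality by group. Counts in genes ranged from 11284847 to 17544945 in old Sphk2 KO, 3145167 to 5115003 in old WT and 28088637 to 74021822 in young WT libraries. Reads outside genes made up 45.03% to 61.9% of the total in old Sphk2 KO, 80.8% to 87.7% in old WT and 6.51% to 12.5% in young WT. A background level was read from 1134 olfactory receptor genes, which blood cells are not known to use: it averaged 0.487 ± 0.165 CPM (the count scaled to the same total of counts in genes in every library) per kb of exon in old Sphk2 KO, 2.23 ± 0.70 in old WT and 0.0336 ± 0.0157 in young WT (SD, n = 3 each). A gene is called above background here when it has 20 counts or more and 5 or more times what this level gives over its exons. Of 8 stem cell markers, 5 to 7 were above background in old Sphk2 KO, 1 to 2 in old WT and 7 to 8 in young WT libraries, so that most of the markers of the sorted cell were not detected above background in old WT. Of 5 erythroid markers, 0 were above background in each old library and 2 to 4 in young WT, and Cd48, which the sort removes, was above it in 1 young WT library. Of 4 B cell, 3 T cell, 6 granulocyte and monocyte, and 4 megakaryocyte markers, 0 to 1, 0, 1 to 4 and 1 to 3 were above background in old Sphk2 KO libraries. These were 0 to 1, 0, 1 to 2 and 0 to 1 in old WT, and 1 to 2, 0 to 1, 4 to 5 and 3 to 4 in young WT. The part of other cells in the results was not tested. Sphk2 itself had 12, 23 and 8 counts in old Sphk2 KO, against 20, 1 and 35 in old WT and 1684, 88 and 576 in young WT. Sphk2 was at background in all 6 old libraries, so its count does not check the KO label. In bulk RNA, fewer cells of a type and less RNA per cell cannot be told apart.

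Most chromatin enzymes were detected in young WT cells and few in old cells. Of the 39, 13, 9 and 12 were above background in old Sphk2 KO libraries 1 to 3, against 4, 6 and 0 in old WT and 32, 34 and 32 in young WT. Over all protein-coding genes the shares were 13.2% to 19.1%, 2.93% to 5.17% and 33.8% to 37.2% in the same groups. The median gene of the 39 stood at 1.81 to 2.10 times background in old Sphk2 KO, 1.34 to 1.47 times in old WT and 68.3 to 163 times in young WT. Most values of old cells thus lay near the background. With it subtracted from every library, which leaves 36 of the 39 genes to test, 0 of them passed in any of the 3 comparisons below. Few of all 8629 genes tested in this way passed either. In old WT against young WT 7 were higher and 6 lower, and in old Sphk2 KO against young WT 4 and 0. The counts for old Sphk2 KO against old WT are given at the end. The 0 thus does not set the 36 apart from other genes.

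**Figure D1:**
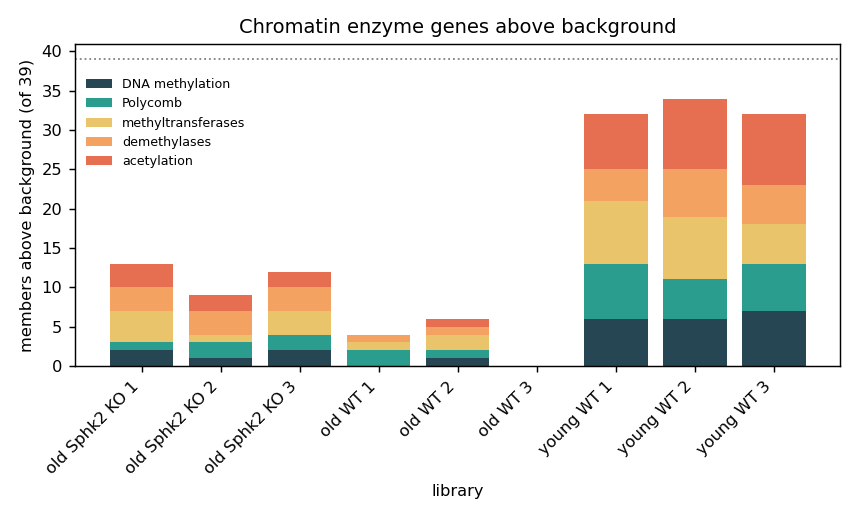
Number of the 39 chromatin enzyme genes above background (vertical axis) in each library (horizontal axis), stacked by class, with a dotted line at 39. Young WT libraries reach 32 to 34, old Sphk2 KO libraries 9 to 13 and old WT libraries 0 to 6.

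In old Sphk2 KO cells, 4 members were above background in all 3 libraries: Uhrf1, Ehmt2, Kdm6b and Sirt1. In old WT cells no member was, and Eed and Kdm1a were above it in 2 of 3. In young WT cells 24 members were above it in all 3 libraries, and Kdm4a in none. Of those 24, 8 were above background in no old library: Dnmt1, Tet2, Tet3, Ezh2, Bmi1, Setd2, Kdm5b and Sirt7. Of the same 24, 29.2% passed this limit in 2 or 3 old Sphk2 KO libraries and 8.3% in 2 or 3 old WT libraries. Of the 5433 protein-coding genes that passed it in every young WT library, 43.8% and 7.5% did so. All 3 old Sphk2 KO libraries passed for 16.7% of the 24 and 22.9% of the 5433, and all 3 old WT libraries for 0% and 3.90%. No old Sphk2 KO library passed for 41.7% and 27.8%, and no old WT library for 70.8% and 74.3%. The share of the 5433 above background in no old library of either group was not counted.

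**Figure D2:**
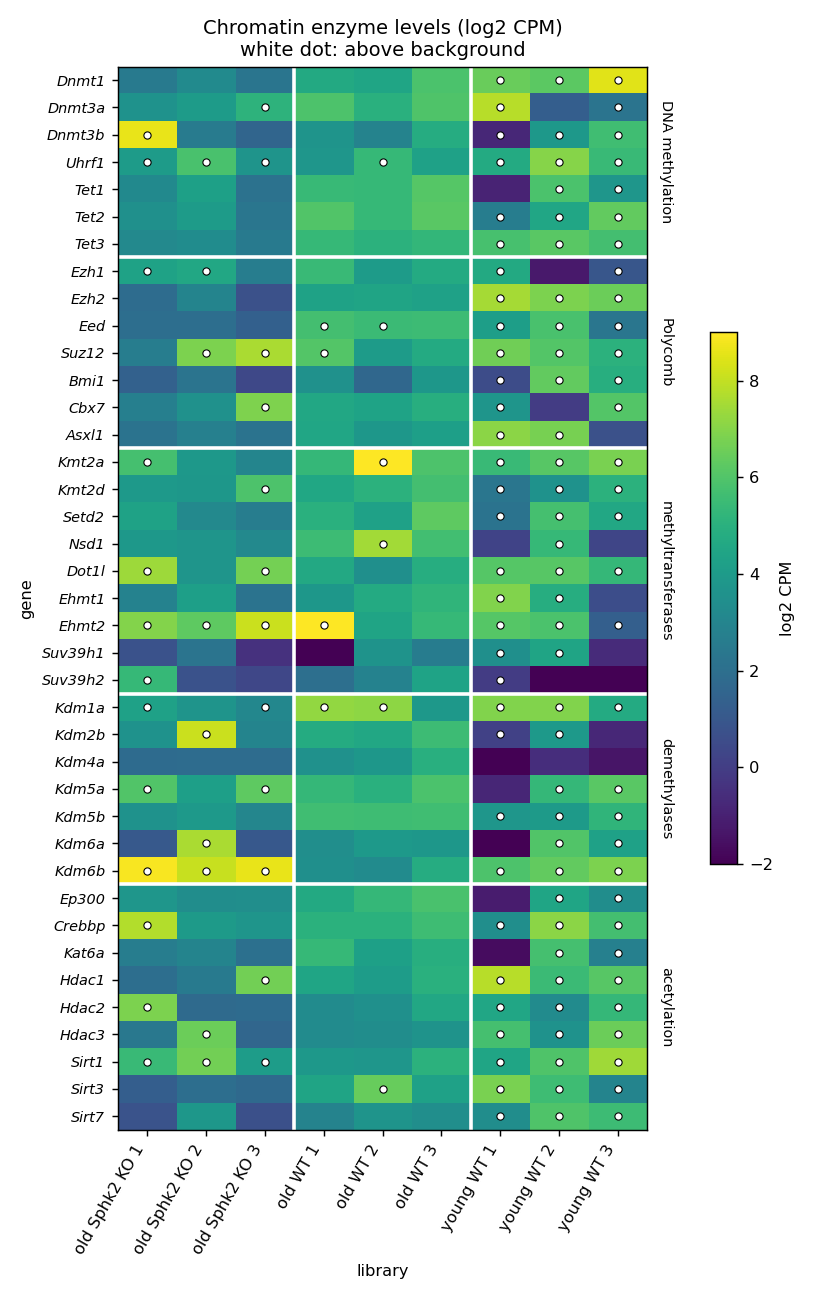
Level of each of the 39 genes (rows, by class) in each library (columns) as log2 CPM, with colours that saturate at -2 and 9. White dots mark values above background, which crowd in the 3 young WT columns.

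Levels of old WT libraries followed exon length. Spearman's rho between CPM and exon length over the 39 genes was 0.24 to 0.30 in old Sphk2 KO libraries, 0.46 to 0.68 in old WT and -0.20 to -0.02 in young WT. These describe genes within a library that share its depth and background. Summed over the 39 genes, the level was 1524 to 1954 CPM in old Sphk2 KO, 1421 to 2574 CPM in old WT and 1830 to 1958 CPM in young WT.

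**Figure D3:**
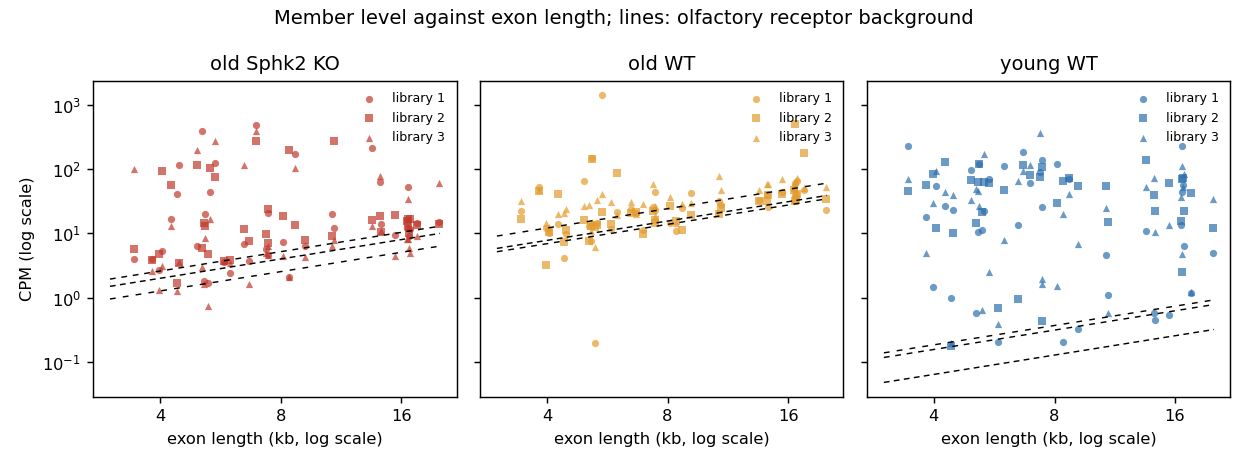
CPM of the 39 genes (vertical, log scale) against exon length in kb (horizontal, log scale), a panel per group with a marker shape per library, and lines at the olfactory receptor background. Old WT points lie along their lines, and most young WT points lie far above theirs.

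Replicates differed widely gene by gene. The highest library was over 10 times the lowest for 11 of the 39 genes in old Sphk2 KO (28.2%), 4 in old WT (10.3%) and 21 in young WT (53.8%). Among the 8357 genes that 2 or 3 young WT libraries held above background, the shares were 37.4%, 19.5% and 46.8%. Per kb of exon, the highest means in young WT were those of Hdac1 at 32.8 ± 28.2, Dnmt1 at 24.0 ± 22.3, Ezh2 at 19.6 ± 7.1, Kdm1a at 17.2 ± 10.4 and Sirt1 at 16.1 ± 14.6 CPM per kb (SD, n = 3). Their SDs are too large to order them.

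Differences between groups were tested with edgeR's quasi-likelihood test over 32582 genes, with Benjamini-Hochberg adjustment and a threshold of 0.05 (n = 3 libraries a group). All 39 members passed the filter on low counts. The 3 comparisons share groups in pairs, so none is independent of the others. CPM values were not rescaled between libraries. The median of all genes tested was 5.30 on the log2 scale for old WT against young WT, -1.91 for old Sphk2 KO against old WT and 3.244 for old Sphk2 KO against young WT. TMM factors, which assume that most genes do not change, moved single genes by a median of -3.90, 1.88 and -2.01. The medians of all genes were then 1.37, -0.038 and 1.20.

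Old Sphk2 KO against young WT cells gave 10 calls among the 39 in this edgeR fit. Ezh2 and Dnmt1 were lower with the smallest adjusted p, as were Sirt3, Asxl1, Tet3, Bmi1 and Eed, and Suv39h2, Kdm4a and Kdm2b were higher. This makes 3 of 39 higher and 7 lower. Over all genes tested, 52.7% were higher and 3.93% lower. Among 8337 tested genes that 2 or 3 young WT libraries held above background, 1.74% were higher and 14.8% lower. Of the 39, 36 met this limit, and Kdm4a, Suv39h2 and Nsd1 did not. Of the 3 members called higher, Kdm2b alone is thus among the 8337. With TMM factors 2256 genes were higher and 1902 lower, among them 0 and 10 members. The count of members called higher was 1 without old Sphk2 KO 1 or old Sphk2 KO 2. That of members called lower was 2, 3 and 4 without old Sphk2 KO 1, 2 and 3, and 4 without old WT 3 or young WT 2. Genes called lower numbered 644 and 635 without old Sphk2 KO 1 and 2, against 1280 in all libraries. The median log2 difference over the 39 was -0.86, against 3.244 over all genes tested and -0.71 over those 8337. CPM ranges did not overlap for 4 members that were higher, against 53.5% of all genes tested and 3.65% of the 8337, and for 6 that were lower, against 4.06% and 15.8%. Of these 4, Kdm4a and Suv39h2 are not among the 8337. By class, calls were lower for 4 of 7 Polycomb genes, 2 of 7 DNA methylation genes and 1 of 9 acetylation genes, and higher for 2 of 7 demethylases and 1 of 9 methyltransferases. Of 23 further Polycomb genes, 0 were called lower and 3 higher in the same comparison, and of 12 further DNA methylation genes 1 was lower and 2 higher. Of 13 further demethylases 2 were lower and 0 higher. Of 24 further methyltransferases 1 was lower and 1 higher, and of 24 further acetylation genes 2 were lower and 1 higher.

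Old WT against young WT cells gave 5 calls: Kdm4a, Suv39h2 and Ehmt2 higher, and Kdm6b and Ezh2 lower. Over all genes tested, 68.4% were higher and 3.48% lower, and over the 8337 genes 3.98% were higher and 13.6% lower. Of the members called higher, Ehmt2 alone is among the 8337. With TMM factors 6062 genes were higher and 5996 lower, among them 0 and 20 members. The count of members called lower was 0 without old WT 1, old WT 2 or young WT 2, and 1 without old WT 3 or young WT 1. Genes called lower numbered 685 without old WT 1, against 1134 in all libraries. The median over the 39 was -0.41, against 5.30 over all genes tested and -0.88 over the 8337. CPM ranges were apart for 6 members that were higher (65% and 7.65% of the 2 sets) and 6 that were lower (5.87% and 22.9%). The 6 higher were Nsd1, Suv39h2, Kdm4a, Kdm2b, Kdm5b and Ep300. Nsd1, Suv39h2 and Kdm4a are not among the 8337, so 6 of 39 and 7.65% are not shares of like sets.

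Old Sphk2 KO against old WT cells gave 0 calls among the 39 in edgeR, and 7 at an unadjusted p under 0.05 (1 higher, 6 lower). An unadjusted p under 0.05 was found for 9528 of all 32582 genes tested (953 higher, 8575 lower). Of the 8337, 1597 had it (896 higher, 701 lower). DESeq2 called 6 members (5 higher, 1 lower), and limma-voom and TMM factors 1 higher each. The 6 libraries compared alone gave 1 higher and 3 lower. Counts over all genes in these 4 fits are given at the end. Over all genes tested, 0.00614% were called higher and 0% lower, and over the 8337 genes 0.024% and 0%. These were 2 genes, against 0 without old Sphk2 KO 3 or any young WT library, 5 without old WT 1 and 4 without old WT 2, and 1 gene was called lower without old WT 3. Ranges were apart for 1 member that was higher, Kdm6b, and for 13 that were lower, against 1.91% and 48.8% of all genes tested and 7.32% and 27.3% of the 8337. Of the 13, Nsd1 and Kdm4a are not among the 8337. The median over the 39 was -1.36, against -1.91 over all genes tested and -0.47 over the 8337.

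The demethylase Kdm6b, which removes the Polycomb methyl mark from histone H3, had the highest level per exon length of the 39 genes in old Sphk2 KO cells. Kdm6b (ENSMUSG00000018476, chromosome 11, 69398508 to 69413675, minus strand, GRCm38) had 482, 270.4 and 394 CPM in old Sphk2 KO libraries 1 to 3, against 11.1, 9.86 and 28.4 CPM in old WT and 61.1, 81.6 and 115 CPM in young WT. The 3 groups did not overlap, with old Sphk2 KO highest and old WT lowest. Counts were 139, 60.2 and 179 times background in old Sphk2 KO, 0.83, 0.82 and 1.35 times in old WT and 553, 302 and 361 times in young WT, so that in old WT the gene was at the background level. Its mean was 54.9 ± 15.3 CPM per kb in old Sphk2 KO, against 2.37 ± 1.49 in old WT and 12.4 ± 3.9 in young WT (SD, n = 3 each).

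Kdm6b was higher in old Sphk2 KO than in old WT by 4.54 ± 1.09 on the log2 scale (SE), with an edgeR p of 6.7e-04 and an adjusted p of 0.146, and so missed the threshold over all genes. It passed with TMM factors (6.64, adjusted p = 0.0338), in DESeq2 (6.24), in limma-voom (4.66, adjusted p = 0.0354) and when only the 6 libraries compared were fitted (adjusted p = 0.0403). It did not pass with upper-quartile factors (6.49), no filter (4.54), a stricter filter (4.54), the replicate block (4.68) or the background subtracted (6.79), with adjusted p of 0.0824 to 0.256. Leaving out each library gave 4.27 to 5.18, and none of these 9 fits passed (adjusted p = 0.0872 to 0.375). Against young WT the difference was 2.15 ± 0.98 (adjusted p = 0.0687, edgeR). It passed in limma-voom (2.21) and with the 6 libraries alone (2.15), and was -0.11 in DESeq2. With TMM or upper-quartile factors, which moved single genes of this comparison by a median of -2.01 and -1.74, it did not pass. Old WT was lower than young WT by a log2 difference of -2.38 ± 0.99 (adjusted p = 0.0393, edgeR), which missed the threshold without old WT 1 (-2.17), old WT 2 (-2.12), young WT 2 (-2.42) or young WT 3 (-2.12). Exons of the antisense gene Kdm6bos cover 4.11% of the exon bases, and the strand setting of the counting is not given in the sources used here.

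**Figure D4:**
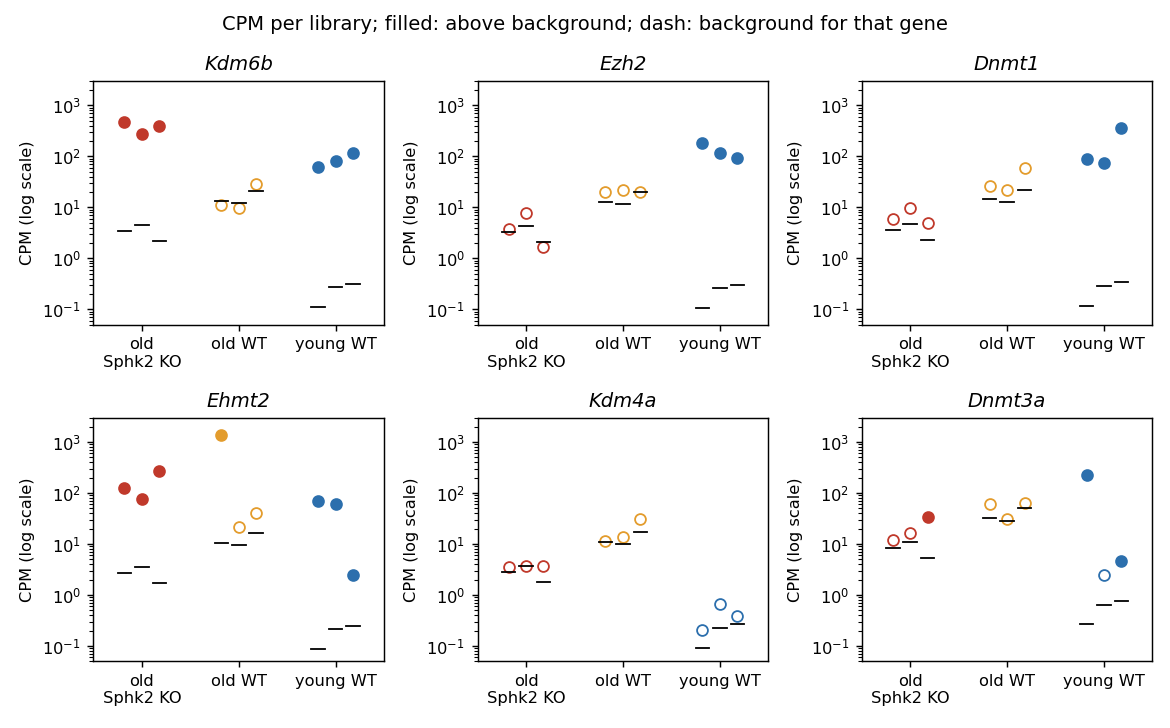
CPM per library (vertical, log scale) of Kdm6b, Ezh2, Dnmt1, Ehmt2, Kdm4a and Dnmt3a in old Sphk2 KO, old WT and young WT cells. Filled points are above background and dashes give the background expected for the gene: Kdm6b is filled in all old Sphk2 KO and young WT libraries and open at its dashes in old WT, and Ezh2 and Dnmt1 are filled in young WT alone.

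Kdm4a, a demethylase of repressive and elongation marks, was near background everywhere. It had 3.57, 3.72 and 3.70 CPM in old Sphk2 KO, against 11.7, 14.0 and 30.7 CPM in old WT and 0.203, 0.676 and 0.387 CPM in young WT, and was above background in none of the 9 libraries, at 0.997 to 3.01 times background. On the log2 scale it was called higher in old Sphk2 KO than young WT by 3.11 ± 1.05 (adjusted p = 0.0224, edgeR) and in old WT than young WT by 5.47 ± 1.17 (adjusted p = 9.73e-04). With TMM factors neither passed, at 1.21 and 1.51, and the first call was lost without old Sphk2 KO 1 (3.13) or old Sphk2 KO 2 (3.10).

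Kdm1a, which removes activating methyl marks and is the demethylase LSD1, had 19.6, 13.0 and 8.49 CPM in old Sphk2 KO, against 149.6, 142 and 14.8 CPM in old WT and 119, 121 and 26.7 CPM in young WT. In CPM, old WT libraries 1 and 2 were above every young WT library, and old Sphk2 KO was below every young WT library. Counts were 14.9, 15.9 and 0.946 times background in old WT libraries 1 to 3. They were 112 to 1449 times in young WT and 3.89 to 7.61 times in old Sphk2 KO. The log2 difference of old Sphk2 KO from young WT was -2.70 ± 1.20 (adjusted p = 0.0636, edgeR). TMM factors, upper-quartile factors and DESeq2 each called Kdm1a lower than young WT in both old groups. Kdm2b, which joins a variant Polycomb complex, had 12.2, 277 and 7.87 CPM in old Sphk2 KO, against 27.2, 24.5 and 46.4 CPM in old WT and 1.11, 15.1 and 0.580 CPM in young WT. Its call as higher in old Sphk2 KO than young WT (4.14 ± 1.64, adjusted p = 0.0415, edgeR) rested on old Sphk2 KO 2, without which it was 0.84, and was also lost without young WT 1 (3.66), young WT 3 (3.61) or old WT 3 (4.14). Kdm6a, the other demethylase of the Polycomb mark, had 196 CPM in old Sphk2 KO 2 and 2.08 and 2.05 CPM in the other two, against 10.8 to 15.6 CPM in old WT and 0.203 to 65.4 CPM in young WT. Over the 7 demethylases the sum was 595, 794 and 502 CPM in old Sphk2 KO, against 300.1, 286 and 244 CPM in old WT and 196, 339 and 271 CPM in young WT, and Kdm6b made up most of it in old Sphk2 KO 1 and 3.

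Among Polycomb genes, Ezh2 was lower in all old libraries. Ezh2 (ENSMUSG00000029687, chromosome 6, 47530139 to 47595341, minus strand), the main methyltransferase of the complex PRC2, had 3.72, 7.71 and 1.65 CPM in old Sphk2 KO, against 20.3, 21.6 and 19.7 CPM in old WT and 184, 114 and 93.6 CPM in young WT. The 3 groups did not overlap. Old Sphk2 KO differed from young WT by a log2 value of -4.91 ± 1.22 (adjusted p = 0.00954, edgeR), a call that held on leaving out each of the 9 libraries (-5.60 to -4.52) but not with the background subtracted (-6.62, adjusted p = 0.326). Old WT differed from young WT by -2.67 ± 1.11 (adjusted p = 0.0393), which was lost without old WT 1 (-2.66), old WT 2 (-2.71), old WT 3 (-2.64), young WT 1 (-2.34) or young WT 2 (-2.76). Old Sphk2 KO against old WT was -2.24 ± 1.09 (adjusted p = 0.175). Counts were 0.78 to 1.79 times background in old Sphk2 KO and 0.98 to 1.88 times in old WT, so these values give no order between the old groups beyond the background, and 305 to 1732 times in young WT.

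The alternative enzyme Ezh1 had 20.5, 24.3 and 6.27 CPM in old Sphk2 KO, against 43.6, 16.2 and 26.7 CPM in old WT and 25.5, 0.427 and 1.93 CPM in young WT. Its groups overlapped in each comparison and none passed in edgeR, while limma-voom, and edgeR without young WT 1, called it higher in old WT than young WT. Without young WT 1, edgeR also called it higher in old Sphk2 KO than young WT. Eed, the subunit that binds the methyl mark, had 3.94, 3.90 and 2.56 CPM in old Sphk2 KO, against 52.6, 45.1 and 47.0 CPM in old WT and 17.9, 56.6 and 4.96 CPM in young WT. It was lower in old Sphk2 KO than in young WT by a log2 value of -2.93 ± 1.20 (adjusted p = 0.0467, edgeR), and the call was lost on leaving out any library other than young WT 1 or young WT 3, at -1.72 without young WT 2, -2.76 to -3.03 without an old Sphk2 KO library and -2.93 without any old WT library. Against old WT it was -3.80 ± 1.25 (adjusted p = 0.153), with ranges apart. DESeq2 and the fit of the 6 libraries compared alone called Eed lower in old Sphk2 KO than old WT. DESeq2 also called it lower in old WT than young WT. Suz12, a core subunit of PRC2, had 6.39, 114 and 197 CPM in old Sphk2 KO, against 66.3, 16.2 and 26.4 CPM in old WT and 97.5, 66.5 and 33.4 CPM in young WT, and its groups overlapped. TMM factors, upper-quartile factors and DESeq2 each called it lower in old WT than young WT. DESeq2 also called it higher in old Sphk2 KO than old WT.

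Bmi1, a subunit of PRC1 that stem cells need for self-renewal, had 2.68, 4.70 and 1.31 CPM in old Sphk2 KO, against 11.9, 3.18 and 14.2 CPM in old WT and 1.47, 82.5 and 30.0 CPM in young WT. It was called lower in old Sphk2 KO than young WT (-3.71 ± 1.41, adjusted p = 0.0350, edgeR) although young WT 1 lay within the old Sphk2 KO range of CPM. In young WT 1 the count was 23.3 times background, against 1.04 to 1.83 times in old Sphk2 KO. The call was lost without any old Sphk2 KO library (-3.66, -4.25 and -3.36), old WT 3 (-3.71) or young WT 2 (-2.44). Asxl1, a partner of the deubiquitinase BAP1, had 4.61, 7.001 and 4.56 CPM in old Sphk2 KO, against 23.1, 14.3 and 18.6 CPM in old WT and 137, 108 and 1.64 CPM in young WT. Young WT 3 thus had the lowest CPM of all 9 libraries. Its Asxl1 count was 4.81 times background, against 0.83 to 1.94 times in the old libraries, so CPM does not order these values. The call of Asxl1 as lower in old Sphk2 KO than young WT (-3.93 ± 1.40, adjusted p = 0.0274) was lost without any old Sphk2 KO library (-3.83, -4.16 and -3.82) or young WT 1 (-3.35). Cbx7, the PRC1 subunit that reads the methyl mark, had 117 CPM in old Sphk2 KO 3 and passed in no comparison in edgeR, while DESeq2 called it lower in old WT than young WT.

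Of the DNA methylation genes, the maintenance enzyme Dnmt1 and the oxidase Tet3 were lower in old Sphk2 KO than in young WT cells. Dnmt1 (ENSMUSG00000004099, chromosome 9, 20907209 to 20959888, minus strand) had 5.80, 9.66 and 4.90 CPM in old Sphk2 KO, against 25.8, 21.9 and 59.2 CPM in old WT and 90.3, 74.1 and 367 CPM in young WT. The 3 groups did not overlap, but old Sphk2 KO and old WT libraries were at 1.58 to 2.10 and 1.73 to 2.66 times background, against 258 to 1083 times in young WT. The log2 difference between old Sphk2 KO and young WT was -4.71 ± 1.24 (adjusted p = 0.0105, edgeR). This call held on leaving out each of the 9 libraries (-5.07 to -3.60), and was lost with the background subtracted (-5.71, adjusted p = 0.309). Old WT against young WT was -2.31 ± 1.12 (adjusted p = 0.0732) and old Sphk2 KO against old WT -2.39 ± 1.12 (adjusted p = 0.170), and neither passed in edgeR. The first passed with TMM factors (-6.43), upper-quartile factors (-6.11) and in DESeq2 (-6.21).

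Its partner Uhrf1 had 16.6, 56.8 and 13.1 CPM in old Sphk2 KO, against 13.9, 41.0 and 19.7 CPM in old WT and 26.3, 127 and 43.7 CPM in young WT, and the ranges overlapped in every comparison. Uhrf1 was above background in every old Sphk2 KO library, at 7.81 to 20.7 times. TMM factors, upper-quartile factors and DESeq2 each called it lower in old WT than young WT. DESeq2 also called it lower in old Sphk2 KO than young WT. The de novo enzyme Dnmt3a had 12.2, 16.7 and 34.3 CPM in old Sphk2 KO, against 60.4, 31.5 and 63.2 CPM in old WT and 227, 2.46 and 4.70 CPM in young WT. Young WT 1 alone was high, and no comparison passed in edgeR. With TMM or upper-quartile factors Dnmt3a was called lower in old WT than young WT, and without young WT 1 it was called higher. Dnmt3b had 396, 5.94 and 3.02 CPM in old Sphk2 KO, against 12.9, 7.63 and 27.8 CPM in old WT and 0.581, 14.6 and 49.3 CPM in young WT. Again a single library, old Sphk2 KO 1, was high and no comparison passed in edgeR, while DESeq2 called Dnmt3b lower in old WT than young WT and higher in old Sphk2 KO than old WT.

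Of the oxidases, Tet3 had 8.92, 10.2 and 5.81 CPM in old Sphk2 KO, against 41.1, 33.1 and 38.9 CPM in old WT and 55.9, 73.6 and 52.4 CPM in young WT. The 3 groups were apart in CPM. Tet3 counts were 0.95 to 1.10 times background in old Sphk2 KO, 0.77 to 1.27 times in old WT and 68.3 to 211 times in young WT. These values thus give no order between the old groups beyond the background. Old Sphk2 KO differed from young WT by a log2 value of -2.87 ± 1.08 (adjusted p = 0.0344, edgeR), which was lost on leaving out any library other than young WT 1 or young WT 3 (-2.67 to -3.04 without an old Sphk2 KO library, -2.87 without an old WT library and -2.70 without young WT 2). Tet2 had 11.6, 16.4 and 4.96 CPM in old Sphk2 KO, against 64.3, 41.0 and 72.8 CPM in old WT and 6.30, 22.5 and 82.3 CPM in young WT. Tet1 had 9.44, 19.1 and 4.39 CPM, against 43.2, 41.3 and 69.6 CPM and 0.527, 59.6 and 13.6 CPM in the same groups. Neither passed in any comparison in edgeR, while DESeq2 called both lower than young WT in old Sphk2 KO and in old WT. No Tet gene was above background in an old library.

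Among methyltransferases, single libraries set most of the high values. Ehmt2, the G9a enzyme of repressive methylation, had 123, 76.3 and 276 CPM in old Sphk2 KO, against 1399.6, 21.6 and 41.2 CPM in old WT and 68.9, 59.8 and 2.51 CPM in young WT. It was called higher in old WT than young WT by a log2 value of 3.48 ± 1.52 (adjusted p = 0.0499, edgeR) although the ranges overlapped. The call rested on old WT 1, without which the value was -0.48, and was lost too without young WT 1 (3.97), young WT 2 (3.77) or young WT 3 (2.92). Old Sphk2 KO was above every young WT library, by 1.86 ± 1.43 (adjusted p = 0.268), and each old Sphk2 KO library was 21.5 to 159 times background.

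Suv39h2, which sets the mark of silent heterochromatin, had 41.4, 1.68 and 1.25 CPM in old Sphk2 KO, against 4.11, 7.31 and 20.6 CPM in old WT and 0.973, 0.178 and 0.193 CPM in young WT. It was called higher than in young WT both in old Sphk2 KO (5.0 ± 1.56, adjusted p = 0.0168, edgeR) and in old WT (4.53 ± 1.53, adjusted p = 0.0139). The first was 1.67 without old Sphk2 KO 1, and missed the threshold, and the second missed it without old WT 3 (3.63). With TMM factors they were 2.48 and 0.07. Suv39h2 was above background in old Sphk2 KO 1 alone of the old libraries. Kmt2a, which methylates H3 at active promoters and is the MLL gene of leukaemia, had 53.4, 14.7 and 8.09 CPM in old Sphk2 KO, against 39.7, 509 and 61.8 CPM in old WT and 43.3, 70.6 and 110.1 CPM in young WT. Dot1l, the enzyme of a mark of transcribed genes, had 169.8, 13.5 and 104 CPM in old Sphk2 KO, against 24.8, 11.1 and 29.0 CPM in old WT and 69.0, 71.5 and 40.3 CPM in young WT, and its old WT range lay below the young WT range. In edgeR neither Kmt2a nor Dot1l passed in any comparison, nor did Kmt2d, Setd2, Nsd1, Ehmt1 and Suv39h1. In old WT against young WT, Dot1l, Ehmt1 and Suv39h1 were called lower with TMM or upper-quartile factors and in DESeq2, Setd2 lower in DESeq2, and Nsd1 higher in limma-voom, with the replicate block and without young WT 2. In old Sphk2 KO against young WT, DESeq2 called Kmt2a, Setd2, Ehmt1 and Suv39h1 lower, and TMM or upper-quartile factors Ehmt1. DESeq2 also called Dot1l higher in old Sphk2 KO than old WT.

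Of the acetylation genes, the mitochondrial deacetylase Sirt3 had 2.45, 3.90 and 3.42 CPM in old Sphk2 KO, against 21.5, 85.8 and 19.4 CPM in old WT and 111, 47.6 and 7.77 CPM in young WT. Old Sphk2 KO lay below all other libraries in CPM. Sirt3 counts were 0.82, 1.01 and 1.81 times background in old Sphk2 KO, and 1.86, 8.35 and 1.08 times in old WT. In young WT they were 28.3 to 1170 times. CPM thus gives no order between old Sphk2 KO and old WT 1 or 3 beyond the background. Old Sphk2 KO was lower than young WT by a log2 value of -4.09 ± 1.33 (adjusted p = 0.0195, edgeR). This was lost without old Sphk2 KO 1 (-3.92), old Sphk2 KO 2 (-4.24) or young WT 1 (-3.08). From old WT it differed by -3.69 ± 1.31 (adjusted p = 0.153). The fit of the 6 libraries compared alone called Sirt3 lower in old Sphk2 KO than old WT. TMM factors, upper-quartile factors and DESeq2 each called Sirt3 lower in old WT than young WT. Exons of other genes on the opposite strand cover 12.7% of its exon bases. The histone deacetylase Hdac1 had 3.94, 5.67 and 100.1 CPM in old Sphk2 KO, against 22.3, 16.9 and 31.9 CPM in old WT and 224, 44.9 and 70.2 CPM in young WT. Old WT lay below every young WT library without passing in edgeR (-2.26 ± 1.33, adjusted p = 0.140), and old Sphk2 KO 3 lay within the young WT range. Sirt1, a nuclear deacetylase, had 43.9, 102 and 16.9 CPM in old Sphk2 KO, against 14.5, 13.7 and 33.4 CPM in old WT and 21.9, 62.4 and 173 CPM in young WT. Its groups overlapped in each comparison, at 10.01 to 29.7 times background in old Sphk2 KO and 1.40 to 2.07 times in old WT. Hdac2, Hdac3, Sirt7, Ep300, Crebbp and Kat6a passed in no comparison in edgeR. With TMM or upper-quartile factors and in DESeq2, Hdac1, Hdac2, Hdac3, Sirt1, Sirt7 and Crebbp were called lower in old WT than young WT, and Sirt7 lower in old Sphk2 KO than young WT. Without young WT 1 or old Sphk2 KO 2, and in limma-voom, Sirt7 was called lower in old Sphk2 KO than young WT as well. DESeq2 called Kat6a lower in both old groups than in young WT, and Hdac1, Hdac3 and Sirt1 lower in old Sphk2 KO. Hdac1 was also called lower in old Sphk2 KO than young WT without old Sphk2 KO 3, and DESeq2 called Sirt1 higher in old Sphk2 KO than old WT.

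Other genes of the same classes were counted beside the 39. Of 96 further genes, 7 were called higher and 6 lower in old Sphk2 KO than young WT, 11 higher and 6 lower in old WT than young WT, and 0 in old Sphk2 KO against old WT in edgeR, where 13 had an unadjusted p under 0.05. Lower in both old groups than in young WT was Men1, a subunit of the Kmt2a complex, at 2.08, 5.67 and 1.48 CPM in old Sphk2 KO, against 1.56, 6.04 and 17.4 CPM in old WT and 111, 35.0 and 49.8 CPM in young WT. Its log2 differences from young WT were -4.41 ± 1.34 (adjusted p = 0.0155, edgeR) in old Sphk2 KO and -2.97 ± 1.26 (adjusted p = 0.0434) in old WT. Mbd4, a DNA repair glycosylase at methylated sites, was called higher in both old groups than in young WT and was above background in none of the 9 libraries. Men1 and Mbd4 were picked as examples after their values were seen.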

How the data were processed

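The processed file held whole-number counts of reads per gene, deposited by the authors as raw counts in 1 table of 9 libraries. Per the submitters' processing notes, Trim Galore 0.6.2, STAR 2.6.1d, HTSeq 0.10.0 and edgeR 3.24.3 were used with build mm10; the strand setting is not given in the sources used here. The 5 rows that name no gene were left out of library sizes. IDs were named from GENCODE M21.

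Counts were tested with edgeR 4.0.16 (R 4.3.3): quasi-likelihood F test, a mean per group over all 9 libraries, library size set to counts in genes without TMM, low counts removed by filterByExpr, Benjamini-Hochberg adjustment in each comparison. TMM was left out so that fold changes match the CPM printed, since most counts of the old libraries are near background. Alternatives were TMM or upper-quartile factors, DESeq2 1.42.0, limma-voom 3.58.1, no or a stricter filter, the 6 libraries compared alone, a replicate block, the background subtracted, and each library left out. The procedure was tested on simulated counts. These had a mean profile shared by all libraries, apart from the genes set to change, and a single spread. They had no background that differed between groups, as it does here, so this run does not check the calls given above. The background came from olfactory receptor exons, with the densest 1% of genes left out.

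The 39 members, the 96 other genes and the markers were chosen with earlier results of these data known. Members were named by rule: up to 8 called per comparison, the highest 2 of each class in young WT cells, and a few fixed genes; others were named after their values were seen, among them Kdm2b and Eed. With 3 libraries a group, an exact permutation test cannot go below p = 0.1.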

Additional observations from a re-analysis of the deposited data

How the results depend on the processing

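Counts of calls moved with the scaling, with the subtraction of the background and with the libraries fitted. For old WT against young WT, 22280 genes were called higher and 1134 lower, with 3 members higher and 2 lower. These became 6062, 5996, 0 and 20 with TMM factors, 9275, 5771, 0 and 20 with upper-quartile factors, and 10380, 6447, 1 and 29 in DESeq2. Members called higher were 5 in limma-voom, and members called lower were 0 with no filter, 1 with the 6 libraries alone and 0 with the replicate block. With a stricter filter 10431 genes were higher. With the background subtracted (8629 genes) the counts were 7, 6, 0 and 0. For old Sphk2 KO against old WT, 2 genes were called higher and 0 lower, and 0 members. These were 149 genes higher and 1 member higher with TMM factors. DESeq2 gave 2030 and 151 genes and 5 and 1 members, higher and lower. Limma-voom gave 111 and 208 genes and 1 member higher. No filter gave 30 and 86 genes, a stricter filter 9 higher, the 6 libraries alone 355 and 7691 genes with 1 and 3 members, and the background subtracted 14 and 2 genes. For old Sphk2 KO against young WT, 17158 genes were called higher and 1280 lower, with 3 members higher and 7 lower. Genes called higher were 2256 with TMM factors, 4113 with upper-quartile factors and 4675 in DESeq2, each with 0 members. Genes called lower were 1997 with upper-quartile factors and 4479 in DESeq2, the second with 21 members. A stricter filter gave 8996 higher. The 6 libraries alone gave 10631 and 551 genes, with 3 members lower, the replicate block 676 genes and 2 members lower, and the background subtracted 4 and 0 genes and 0 members. The cause of these moves was not tested.

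Leaving out each library gave 22613 to 26603 genes higher and 685 to 1286 lower for old WT against young WT, with 2 to 4 and 0 to 2 members. It gave 0 to 5 and 0 to 1 genes and 0 members for old Sphk2 KO against old WT. It gave 11694 to 17565 and 635 to 1446 genes, with 1 to 3 and 2 to 7 members, for old Sphk2 KO against young WT. Ehmt2 in old WT against young WT ranged over -0.48 to 4.04 on leaving out each library, and turned, at -0.50 with TMM factors, -0.33 with upper-quartile factors, -0.50 in DESeq2 and -0.48 without old WT 1. Kdm6b in old Sphk2 KO against young WT turned to -0.11 in DESeq2. Libraries with the same replicate number did not deviate together (correlations of deviations from group means of -0.03 to 0.02), and not every library correlated best with its own number, so the replicate block pairs samples by number only. In the old WT libraries the background sets the limit: a level under 5 times background was not taken as detected there.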
